A study of Mus musculus with 22 samples.

Results

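Tumour necrosis factor (TNF) and the receptors of its family were followed at the level of chromatin, through the 4 genes Tnf, Tnfrsf1b, Tnfrsf18 and Fas. All regions that the deposited annotation assigned to these genes were taken, whatever their class, from 4 tables of regions of differential H3K4me3. This gave 8 regions of 26201 in all, with 4 of 13603 at 3 weeks, 1 of 2923 at 8 weeks, 2 of 6593 at 11 weeks and 1 of 3082 after TNF treatment. Fas was listed in all 4 tables, Tnfrsf18 in 2, and Tnf and Tnfrsf1b only in that of 3 weeks.

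H3K4me3 is a histone mark of active promoters and was measured by chromatin immunoprecipitation and sequencing in mouse synovial fibroblasts, the connective tissue cells that line the joint, at passage 4-5. The mice were CBA x C57BL/6J. The groups were Tg197 cells from mice of 3, 8 and 11 weeks, wild-type (WT) cells of 8 weeks plus TNF, and untreated WT cells of 3, 8 and 11 weeks, with 3 libraries each. As background, Tg197 mice carry a human TNF transgene whose sequence after the coding part was replaced by that of a globin gene, and they develop arthritis. The transgene is human and is not a part of the mouse genome build, so the Tnf region is at the mouse gene, and whether transgene reads were placed there was not tested. The TNF dose, the length of treatment and the origin of the 3 libraries of each group (separate mice, cultures or neither) are not stated in the labels. The p-values therefore measure only the spread between libraries, which may be technical.

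TNF is a cytokine that acts as a trimer on a pair of receptors. The receptor encoded by Tnfrsf1a carries a death domain, and the one encoded by Tnfrsf1b, TNF receptor 2, has none and binds the adaptor TRAF2. Both can activate NF-kB, the transcription factor that induces many inflammatory genes, and Tnf and Fas are known NF-kB targets. Fas encodes the death receptor bound by Fas ligand, which assembles FADD and caspase-8 and can trigger apoptosis. Tnfrsf18 encodes GITR, a costimulatory receptor best known from regulatory T cells.

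The listed regions of Fas (TNF table only) and of Tnfrsf1b reach across the transcript start, and those of Tnfrsf18 do not. The 250 bases before the start are therefore shown for these 3 genes, from RefSeq on the GRCm38.p6 build, 5′ to 3′ in the direction of transcription. Every CG dinucleotide, the sequence at which promoters rich in H3K4me3 are often dense, is in capitals.
Fas (chr19:34290409-34290658, plus strand): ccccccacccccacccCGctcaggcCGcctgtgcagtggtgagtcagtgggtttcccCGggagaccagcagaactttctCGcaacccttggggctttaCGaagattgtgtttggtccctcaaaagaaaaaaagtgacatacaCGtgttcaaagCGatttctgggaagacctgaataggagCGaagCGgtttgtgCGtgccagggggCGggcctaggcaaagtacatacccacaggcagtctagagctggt
Tnfrsf1b (chr4:145246871-145247120, minus strand): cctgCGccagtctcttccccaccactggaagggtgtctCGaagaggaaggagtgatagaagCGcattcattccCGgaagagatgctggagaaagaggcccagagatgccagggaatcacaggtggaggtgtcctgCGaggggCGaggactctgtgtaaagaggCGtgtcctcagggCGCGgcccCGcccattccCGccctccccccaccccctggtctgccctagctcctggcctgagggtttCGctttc
Tnfrsf18 (chr4:156026072-156026321, plus strand): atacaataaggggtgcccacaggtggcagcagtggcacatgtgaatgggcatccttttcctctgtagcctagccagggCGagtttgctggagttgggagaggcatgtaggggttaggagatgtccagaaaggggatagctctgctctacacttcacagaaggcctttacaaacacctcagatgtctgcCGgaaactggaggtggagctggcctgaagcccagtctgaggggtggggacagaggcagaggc

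The Fas window holds 11 CG dinucleotides and that of Tnfrsf1b 12, against 2 in Tnfrsf18 and 10 in Tnf, and the median over 32851 RefSeq promoter windows of this length was 6. Windows with at least as many made up 35.6% for Fas, 33.5% for Tnfrsf1b, 81.2% for Tnfrsf18 and 37.8% for Tnf. The motif GGGCGG, searched on both strands and overlapping with a CG by its letters, was found once in Fas, once in Tnf, and at 2 places in Tnfrsf1b, and in 32.7% of all windows. TATAAA, also searched on both strands, was found in Tnf and in 12.4% of all windows. The NF-kB consensus was found in none of the 4 windows and in 3.90% of all windows, which says only that these letters are not in this stretch. Regions below are on the mm9 build as deposited and were not converted, so whether RefSeq starts equal the deposited ones was not tested.

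Only regions with a difference in the authors' own comparison were listed, so a gene without a region in a table has no value there. Listed regions summed to 321448 to 2780941 reads in a library, and a member region had 71 to 1597. Values are normalized reads as deposited, and letters a, b and c tell the 3 libraries of a group apart. Changes were tested with limma on log2(normalized reads + 0.5) over every region of the table, with Benjamini-Hochberg adjustment, and "rose" and "fell" are kept for an adjusted p under 0.05. Most listed regions were lower, and the median log2 change of the 3, 8 and 11 week tables was -0.70, -0.86 and -0.60, and that of the TNF table -0.58. Scaling each library to its median over all listed regions moved these medians to -0.04, -0.15, -0.26 and -0.07. That scaling makes the library medians equal, so table medians near 0 are set by the method and are not a finding. It lifts all changes of a table by a similar amount. Higher values or a change of sign under it are therefore no separate test of direction. Synovial fibroblast markers were among the listed genes in every table (7, 3, 4 and 3 of 9 in the same order), and their levels outside listed regions are not known. By the authors' adjusted p 2, 2, 3 and 1 of them were higher, 3, 1, 0 and 2 lower, and 2, 0, 1 and 0 had regions of both kinds. Being listed means only that a region differed between the groups. Of 8 leukocyte markers 1, 2, 1 and 0 were listed (Itgam at 3 and 11 weeks, Cd79a and Fcer1g at 8 weeks), all lower in Tg197, and of 5 T cell markers 0 were listed in any table. Of 5 endothelium markers 3, 0, 2 and 1 were listed. Flt1 rose at 3 weeks (log2 change 0.59) while Pecam1 and Tek fell, Pecam1 fell with TNF, and at 11 weeks Pecam1 rose in 2 regions (0.71 and 0.62) and fell in 1 (-0.61) while Tek fell. Of 5 cartilage and bone markers 3, 3, 2 and 3 were listed, all lower (with scaling to all listed regions 3 of 5 regions at 3 weeks and 1 of 3 at 8 weeks were above 0), and of 3 muscle markers Ckm alone was listed, lower at 3 and 8 weeks. The part of other cell types in the results below was not tested.

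All 8 member regions passed 0.05 on the adjusted p of the authors' deposited tables, as did 99.2%, 97.4% and 96.8% of listed regions at 3, 8 and 11 weeks and 96.9% with TNF. Of the regions of 3 weeks, 9.71% were higher and 89.5% lower by the authors' adjusted p. For 8 weeks these shares were 20.2% and 77.2%, for 11 weeks 29.8% and 67%, and for TNF treatment 24.6% and 72.3%. By limma 5 of the 8 passed. At 3 weeks 2 of 4 fell, against 88.9% of listed regions, and 0 of 4 rose, against 4.68% (18.7% of regions within 3 kb of a start). At 11 weeks 2 of 2 rose, against 29.6% of listed regions and 45.3% of those within 3 kb of a start, while 67.7% of listed regions fell. With TNF 1 of 1 rose, against 16.5% of listed regions and 26.1% of those within 3 kb of a start, while 42.6% fell. No limma call of the TNF table held without TNF library b or c or WT library a or b, or with no variance trend, since limma then called 0 regions. At 8 weeks 0 of 1 passed, against 0% of listed regions in either direction by limma. Of those 2923 regions, 1876 had a raw p below 0.05, and the count was likewise 0 by voom.

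**Figure D1:**
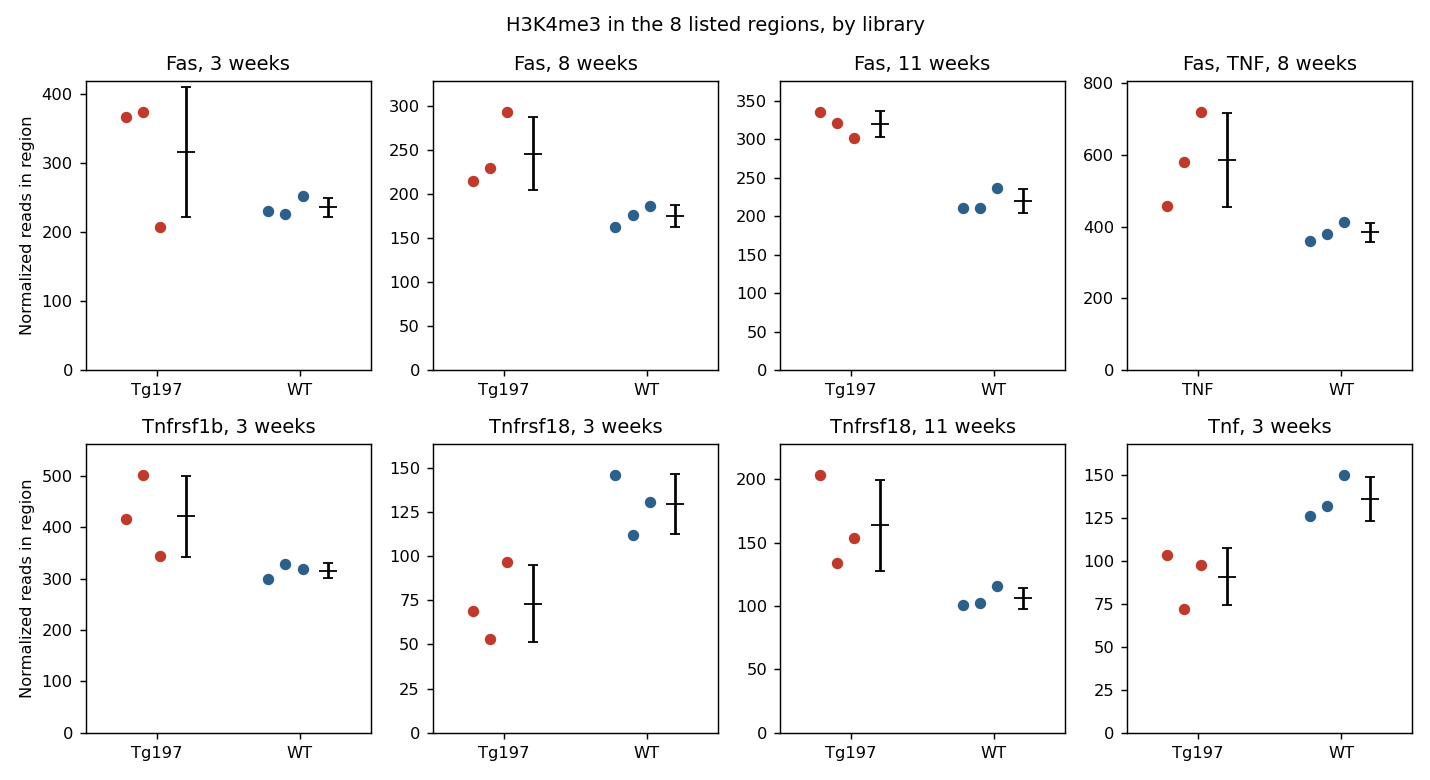
Normalized reads (y axis, from 0) in each of the 8 listed regions, with Tg197 or TNF-treated libraries in red on the left and WT libraries in blue on the right, and mean ± SD as black bars (n = 3). The groups are separate in 7 panels and overlap at Fas at 3 weeks, where Tg197 library c, at 207.76, lies below all WT libraries. Such separation was common among listed regions, with 86.4% separate and lower at 3 weeks, and 6.29%, 16.9%, 28.8% and 22.4% separate and higher at 3, 8 and 11 weeks and with TNF.

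Fas rose by 1.45-fold in Tg197 cells of 11 weeks, in a region after its start. In TNF-treated cells it rose by 1.52-fold, in a region that spans the start. At 3 and 8 weeks its higher means in Tg197 cells did not pass limma. At 3 weeks the region (chromosome 19, 34365201 to 34366200) began 53 bp after the start of the plus-strand transcript NM_001146708. It had 366.41, 373.38 and 207.76 normalized reads in Tg197 libraries and 229.99, 225.76 and 251.37 in WT libraries. Libraries a and b of Tg197 were above all WT libraries and library c below them, so the groups overlapped. The means were 315.9 ± 93.7 in Tg197 and 235.7 ± 13.7 in WT (SD, n = 3 each), and the log2 change of 0.37 ± 0.22 (SE) did not pass (limma adjusted p = 0.120). Without Tg197 library c, which had the fewest reads in listed regions of that table (1560963), it was 0.65 (limma adjusted p = 0.00192). Leaving out any other library gave 0.23 to 0.42 and no call (limma adjusted p from 0.158 to 0.380). The change was 1.04 with scaling to all listed regions (limma adjusted p = 0.0768). It was 0.04 with scaling to those within 1 kb of a start (limma adjusted p = 0.867).

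At 8 weeks the Fas region (34365701 to 34367000, from 553 to 1852 bp after the start) had 214.81, 229.24 and 293.05 normalized reads in Tg197 libraries and 162.27, 175.95 and 186.49 in WT libraries. Every Tg197 library was above every WT library, as at 16.9% of listed regions. The log2 change of 0.48 ± 0.21 did not pass (limma adjusted p = 0.0763), and without WT library c, the highest of the WT libraries at Fas, it was 0.53 (limma adjusted p = 0.0383). Leaving that library out gave 2563 calls over the table in place of 0. Leaving out any other library gave a Fas change of 0.34 to 0.57 and no call (limma adjusted p from 0.119 to 0.231). With libraries scaled to all listed regions the change was 1.19 (limma adjusted p = 0.0427). Scaled to those within 1 kb of a start it was 0.35 (limma adjusted p = 0.157).

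At 11 weeks the Fas region lay further into the gene (34366301 to 34368400, from 1153 to 3252 bp after the start). It had 335.16, 320.67 and 301.38 normalized reads in Tg197 libraries and 210.82, 210.18 and 237.04 in WT libraries. The groups were separate, as at 28.8% of listed regions in that direction, with means of 319.1 ± 16.9 in Tg197 and 219.3 ± 15.3 in WT. Fas rose by 0.54 ± 0.10 on the log2 scale (limma adjusted p = 0.00434), and it stayed past the threshold without any 1 of the 6 libraries and under both other scalings (0.88 and 0.39). Of these scalings only that to regions near a start (0.39) lowers changes.

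In TNF-treated WT cells the Fas region was the widest (34364701 to 34367200) and ran from -447 to 2052 bp relative to the start. It had 457.65, 580.05 and 719.73 normalized reads in TNF-treated libraries and 360.37, 380.67 and 412.11 in untreated WT libraries. All treated libraries were above all untreated ones, as at 22.4% of listed regions. Fas rose by 0.59 ± 0.17 on the log2 scale, at an adjusted p close to the threshold (limma, 0.0460). The call was lost without TNF library b (0.135), TNF library c (0.129), WT library a (0.132) or WT library b (0.114), with no variance trend (0.0569), and with voom on reads recovered from the normalized values (0.0559), all limma adjusted p.

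The 4 Fas regions were not the same interval. The 3 week, 8 week and TNF regions shared 500 bp (34365701 to 34366200), and the 8 week, 11 week and TNF regions shared 700 bp (34366301 to 34367000). The 3 week and 11 week regions did not overlap. The best 1 kb window of the authors' test ran from 553 to 1552 bp after the start in both the 8 week and the TNF table. It ran from 53 to 1052 bp at 3 weeks and from 1453 to 2452 bp at 11 weeks. In the authors' deposited tables the log2 change in that window was 0.42, 0.52 and 0.67 in Tg197 over WT cells of 3, 8 and 11 weeks, and 0.67 in TNF-treated over untreated cells. The 8 week and TNF comparisons used the same untreated WT libraries, and all tables were normalized separately, so no order between them was tested.

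**Figure D2:**
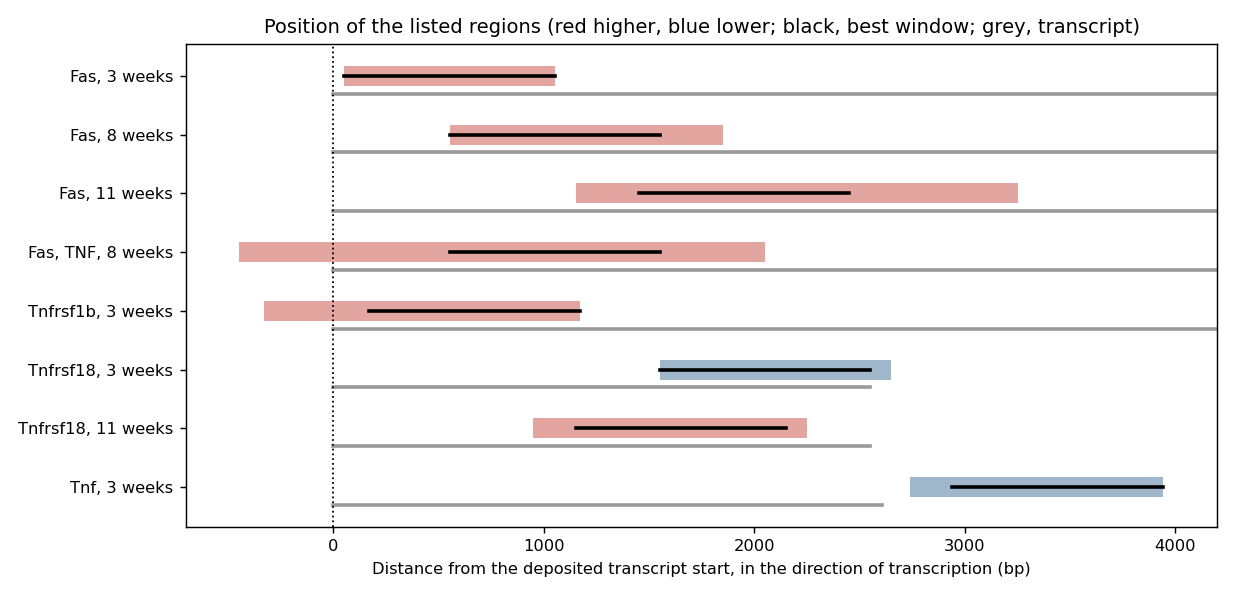
Listed regions drawn by their distance in bp from the deposited transcript start (x axis, start at 0), 1 line per region, in red where higher and in blue where lower in Tg197 or TNF-treated cells. Black lines mark the authors' best window and grey lines the transcript. The Fas regions lie between -447 and 3252 bp from the start, and the Tnf region begins past the grey transcript.

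Tnfrsf1b, which encodes TNF receptor 2, was listed at 3 weeks only. Its region (chromosome 4, 144835601 to 144837100, minus strand) ran from -328 to 1171 bp relative to the start. It had 416.49, 502.09 and 344.90 normalized reads in Tg197 libraries and 299.30, 328.58 and 319.14 in WT libraries. Every Tg197 library was above every WT library, as at 6.29% of listed regions, of which only 3002 of 13603 lay within 3 kb of a start. Tg197 library c was the lowest of its group, as at Fas. The fold was 1.33 and the log2 change 0.40 ± 0.18, just short of the threshold (limma adjusted p = 0.0523), and without Tg197 library c it was 0.54 (limma adjusted p = 0.00408). Leaving out any other library gave 0.26 to 0.43 and no call (limma adjusted p from 0.0953 to 0.158). With scaling to all listed regions the log2 change was 1.07 (limma adjusted p = 0.0396), and to those near a start 0.07 (limma adjusted p = 0.748). The latter sets the library medians of near-start regions equal, so Tnfrsf1b differed little from the middle of such regions, as did Fas (0.04). In the authors' deposited table the enrichment was 6.90 in Tg197 against 3.39 in WT at Tnfrsf1b, and 7.16 against 3.44 at Fas.

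Tnfrsf18, the gene of GITR, was lower in Tg197 at 3 weeks and higher at 11 weeks, in regions that share 700 bp. Its deposited transcript spans 2550 bp on the plus strand of chromosome 4. At 3 weeks the region (155402001 to 155403100) lay from 1551 to 2650 bp after the start and so covered the end of the transcript. It had 69.15, 53.34 and 96.41 normalized reads in Tg197 libraries and 145.97, 111.76 and 130.61 in WT libraries. The groups were separate, as at 86.4% of listed regions in that direction. Tnfrsf18 fell by 0.86 ± 0.25 on the log2 scale (limma adjusted p = 0.0143), close to the table median of -0.70. Leaving out WT library a gave a limma adjusted p of 0.0511 and leaving out WT library c one of 0.0646, and the change was -0.19 when libraries were scaled to all listed regions (limma adjusted p = 0.915).

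At 11 weeks the Tnfrsf18 region (155401401 to 155402700) lay from 951 to 2250 bp after the start, inside the transcript. It had 203.45, 134.21 and 153.20 normalized reads in Tg197 libraries and 100.44, 102.04 and 115.71 in WT libraries. The groups were separate, as at 28.8% of listed regions in that direction, and Tg197 library a was the highest. Tnfrsf18 rose by 0.60 ± 0.16 on the log2 scale, or 1.54-fold (limma adjusted p = 0.00490), and stayed past the threshold without any 1 library and under both other scalings (0.95 and 0.46). Of these scalings only that to regions near a start (0.46) lowers changes. The tables were normalized separately, so the difference between the ages was not tested. Reads were few, between 71 and 139 per library at 3 weeks and between 91 and 190 at 11 weeks.

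The Tnf region was also lower in Tg197 at 3 weeks, and it lies beyond the gene. It was deposited as gene body (chromosome 17, 35335001 to 35336200, minus strand), yet it began 135 bp past the end of the deposited transcript NM_013693, which spans 2606 bp. Of 6357 regions of that class at 3 weeks, 82 (1.29%) lay outside their transcript. The Tnf region had 103.33, 71.89 and 97.77 normalized reads in Tg197 libraries and 126.02, 131.88 and 150.33 in WT libraries. The groups were separate, as at 86.4% of listed regions in that direction, with Tg197 library b the lowest. Tnf fell by 0.59 ± 0.20 on the log2 scale (limma adjusted p = 0.0172), and its limma adjusted p became 0.0508 when WT library b was left out and 0.0713 when WT library c was. With scaling to all listed regions the change turned to 0.08 (limma adjusted p = 0.953), and 74.8% of listed regions were lower than Tnf on the log2 scale of change. In the authors' deposited table the enrichment was 3.30 in Tg197 and 3.53 in WT.

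**Figure D3:**
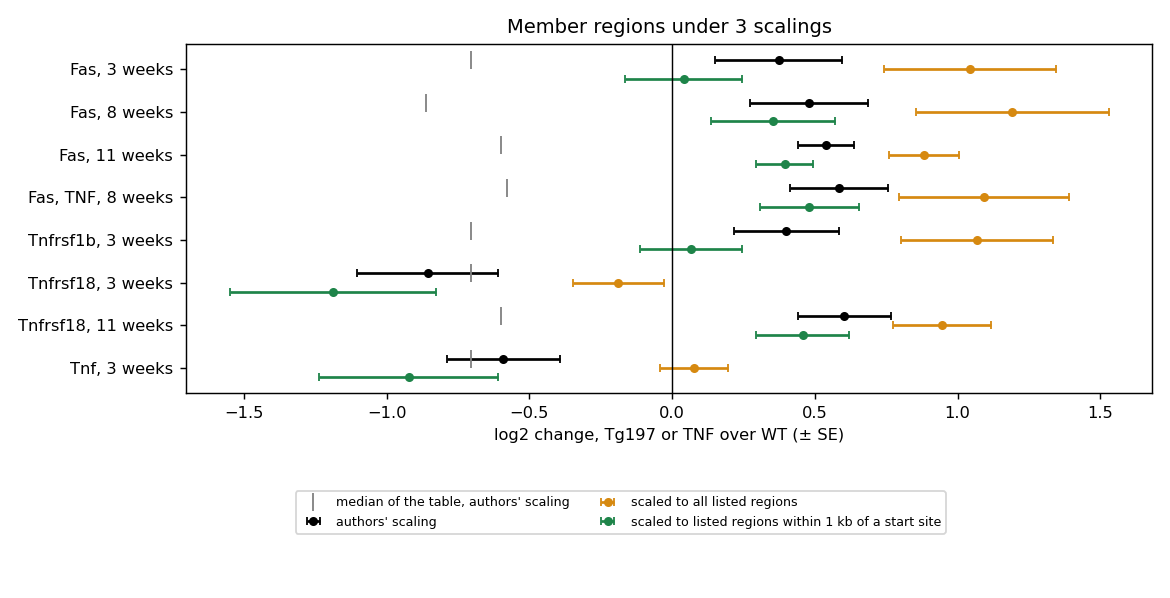
Log2 change ± SE (x axis) of each of the 8 regions in Tg197 or TNF-treated over WT libraries, with the authors' scaling in black, medians set equal over all listed regions in orange, and over those within 1 kb of a start in green. Grey ticks give the table median under the authors' scaling. Fas and Tnfrsf1b stay above 0 under all 3, down to 0.04 and 0.07 at 3 weeks, and Tnf at 3 weeks crosses 0.

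By level, the member regions of 3 weeks formed 2 sets. Fas had 315.9 normalized reads per kb in Tg197 and 235.7 in WT, and Tnfrsf1b had 280.8 in Tg197 and 210.4 in WT, which put both above 95.0% of the listed regions of that table. Tnf had 75.8 per kb in Tg197 and 113.4 in WT, and Tnfrsf18 had 66.3 in Tg197 and 117.7 in WT, in the lower part of the table (percentiles 28.3 and 18.5). The sets also differ in position. The Fas region began 53 bp after the start and that of Tnfrsf1b spanned it, while that of Tnfrsf18 began 1551 bp after it and that of Tnf 135 bp past the transcript. No region at the start of Tnf or Tnfrsf18 was listed in any table, so the level there is not known. At 11 weeks Fas had 151.9 per kb in Tg197 and 104.5 in WT, and Tnfrsf18 had 125.9 in Tg197 and 81.6 in WT.

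Most regions listed around Tnf at 3 weeks were lower as well. In RefSeq's order of genes Tnf lies between Ltb and Lta, which encode the chains of lymphotoxin. Within 100 kb on either side of Tnf, a distance chosen after seeing the data, 20 regions were listed, and 19 fell and 1 rose, near the 88.9% of all listed regions that fell. The region that rose, at the MHC class I gene H2-D1, had 180.6 ± 13.9 normalized reads in Tg197 and 122.6 ± 13.8 in WT. The Ltb promoter region, centred 700 bp before the start, fell by 0.79 ± 0.17 on the log2 scale, with 103.0 ± 8.6 in Tg197 and 178.8 ± 10.7 in WT. That of Lta fell by 0.78 ± 0.20, with 130.8 ± 23.8 in Tg197 and 224.6 ± 44.1 in WT (limma adjusted p = 0.0143 for both). With scaling to all listed regions 7 of the 20 were lower, Ltb at -0.13 and Lta at -0.11. With TNF treatment 10 regions were listed in this stretch, 0 of them at Tnf, Lta or Ltb. All 10 were lower under each scaling, D17H6S53E by only 0.004 with scaling to all listed regions. By the authors' adjusted p 72.3% of the table was lower. By limma 8 of the 10 fell, against 42.6% of the table, all close to the threshold (limma adjusted p from 0.0460 to 0.0477). Without TNF library b or c or WT library a or b, limma called 0 regions in the whole table. The stretch did not go 1 way in the other tables. At 8 weeks 1 of 4 listed regions was higher in Tg197 and limma called 0, and at 11 weeks 3 of 5 were higher, of which 2 rose, and 2 fell.

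**Figure D4:**
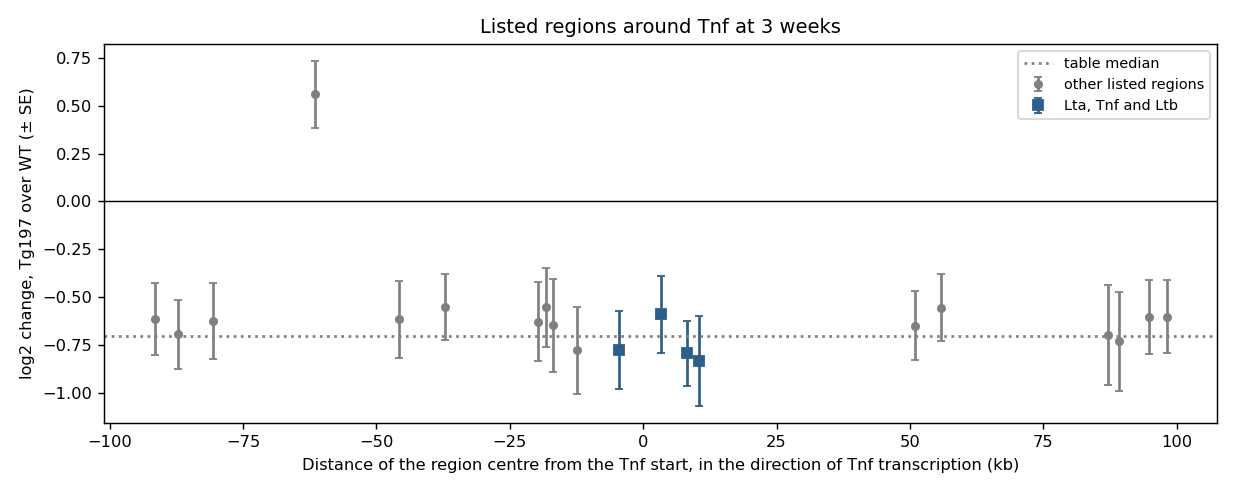
Log2 change ± SE (y axis) in Tg197 over WT cells of 3 weeks for the 20 listed regions within 100 kb of Tnf, by distance of the region's centre from the Tnf start in kb. Blue squares are Lta, Tnf and Ltb, the dotted line is the table median of -0.70, and 1 region, at H2-D1, lies above 0.

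Near the receptors few regions were listed. Within 100 kb of Tnfrsf18, counting its own, 4 were listed at 3 weeks. Of these 1 rose and 3 were lower, of which 2 fell, against 88.9% of the table. At 8 weeks 2 were listed and both were lower. At 11 weeks 2 were listed and both rose, against 29.6% of the table, the other one at Sdf4 by 0.68 ± 0.18 on the log2 scale (limma adjusted p = 0.00481). Tnfrsf4, which encodes the costimulatory receptor OX40 and neighbours Tnfrsf18, had a region at 8 weeks with 56.2 ± 11.3 normalized reads in Tg197 and 130.4 ± 22.5 in WT (log2 change -1.21 ± 0.35, limma adjusted p = 0.0725). Within 100 kb of Fas the other listed regions were at its neighbour Acta2, the gene of smooth muscle actin. The Acta2 promoter region at 8 weeks had 562.1 ± 63.0 in Tg197 and 341.7 ± 53.7 in WT (log2 change 0.72 ± 0.22, limma adjusted p = 0.0725). A region in the Acta2 gene body fell at 3 weeks by 0.68 ± 0.19 on the log2 scale.

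The wider family was described with fixed lists of 18 ligand genes and 28 receptor genes, of which 5 and 14 had a listed region in any table. The members stand in these lists too. Among ligand genes at 3 weeks 4 of 18 were listed and all 4 fell, as did 88.9% of listed regions, with a median log2 change of -0.72 against -0.70 over the table, and 3 of their 6 regions were above 0 with scaling to all listed regions. Besides Tnf, Lta and Ltb these included Tnfsf12, the gene of TWEAK, whose promoter flank fell by 0.66 ± 0.18. At 8 weeks Tnfsf12 had 124.9 ± 45.1 normalized reads in Tg197 and 190.8 ± 17.7 in WT (log2 change -0.68 ± 0.31). At 11 weeks 0 of the 18 were listed. With TNF Tnfsf9, the gene of 4-1BB ligand, rose by 0.51 ± 0.13, with 303.9 ± 6.5 in TNF-treated and 214.1 ± 23.8 in untreated cells, and a Tnfsf12 gene-body region fell by 1.33 ± 0.29. Both were close to the threshold (limma adjusted p = 0.0460).

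Among receptor genes at 3 weeks 7 of 28 were listed, and 5 fell and 0 rose by limma, against 88.9% and 4.68% of listed regions. The 5 were Cd40, Relt, Tnfrsf18, Tnfrsf1a and Tnfrsf23, and Fas and Tnfrsf1b were the only receptor genes with a positive change. The median log2 change of the 10 receptor regions, -0.64, turned to 0.02 with scaling to all listed regions, which moved the table median to -0.04. The Cd40 promoter, of a receptor that activates antigen-presenting cells, fell by 0.72 ± 0.22, with 73.1 ± 11.6 in Tg197 and 120.0 ± 0.6 in WT. A promoter region of Relt, another family receptor, fell by 0.83 ± 0.26. At Tnfrsf1a, the receptor with a death domain, 3 gene-body regions fell by limma, by 0.44 to 0.74, of which 1 passed the adjusted p of the authors' deposited table.

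At 8 weeks 5 of the 28 receptor genes were listed and limma called 0. Fas was higher, and Edar, Ltbr, Tnfrsf1a and Tnfrsf4 were lower by the authors' adjusted p. Edar, the ectodysplasin receptor of skin appendages, had 58.4 ± 14.9 normalized reads in Tg197 and 160.9 ± 42.6 in WT (log2 change -1.45 ± 0.35). Ltbr, the lymphotoxin beta receptor, had 55.7 ± 18.2 in Tg197 and 127.9 ± 33.5 in WT in a gene-body region (log2 change -1.21 ± 0.42). In both, WT library c was the lowest of the WT libraries.

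At 11 weeks 6 of the 28 receptor genes were listed and all 6 rose, against 29.6% of listed regions. Of the 6 genes 5 had a region within 3 kb of a start, and 45.3% of such regions rose. They were Fas, Ngfr, Tnfrsf13b, Tnfrsf13c, Tnfrsf18 and Tnfrsf23, and their regions were above 0 under all 3 scalings, of which only that to regions near a start lowers changes. Their median log2 change was 0.57, against -0.60 over the table and 0.09 over its 1771 regions within 3 kb of a start. Tnfrsf13b, the gene of TACI, rose by 0.74 ± 0.16, with 156.6 ± 22.6 in Tg197 and 93.2 ± 11.6 in WT in a gene-body region. Tnfrsf13c, the gene of the BAFF receptor, rose by 0.68 ± 0.15, with 132.4 ± 7.8 in Tg197 and 82.7 ± 7.1 in WT. Both are best known from B cells. The B cell marker Cd79a was not listed at this age and so has no value, and the part of B cells was not tested. Tnfrsf23, a decoy receptor gene in mouse, fell at 3 weeks in a region centred 2526 bp after its start and rose at 11 weeks in a region centred 176 bp after it.

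With TNF treatment 4 of the 28 receptor genes were listed, of which Fas rose and Relt fell by 1.53 ± 0.52 (limma adjusted p = 0.0461 for Relt). Tnfrsf10b, the mouse death receptor for TRAIL, had 216.7 ± 13.8 normalized reads in TNF-treated and 163.9 ± 61.6 in untreated cells, where WT library c, at 232.02, was above all treated libraries. Ltbr had 115.9 ± 43.4 in TNF-treated and 184.2 ± 12.3 in untreated cells (log2 change -0.73 ± 0.28).

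**Figure D5:**
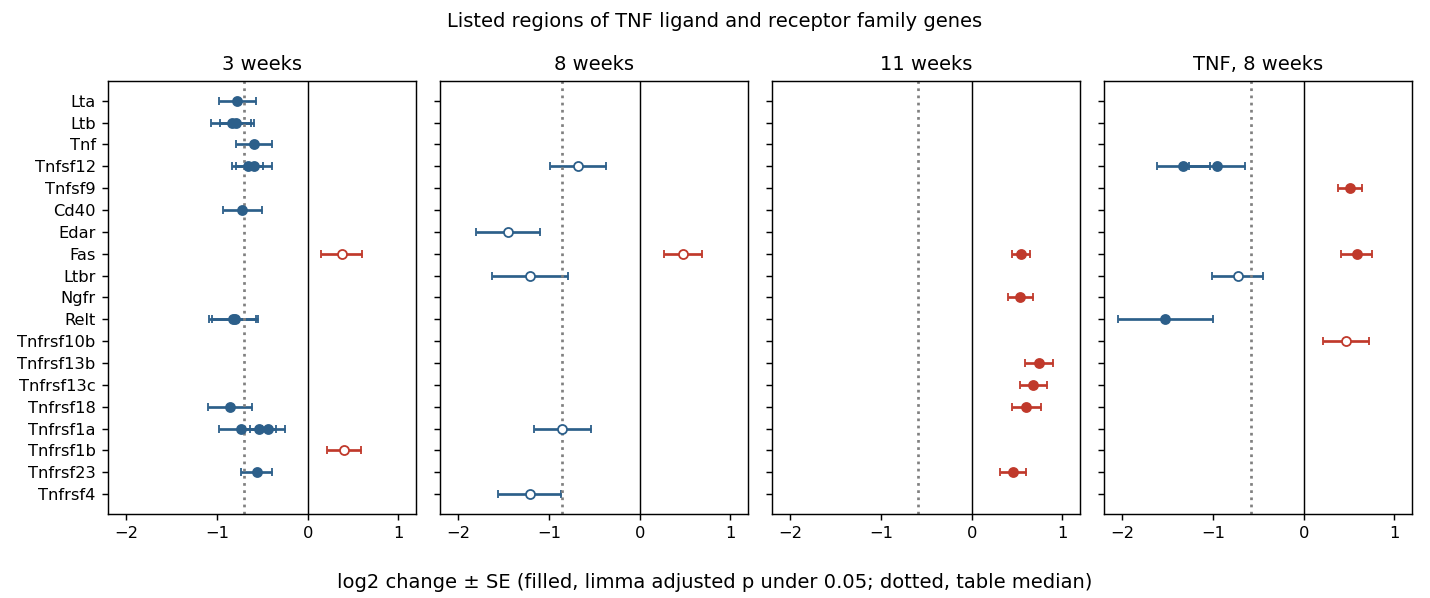
Log2 change ± SE (x axis) of every listed region of the ligand and receptor lists in the 4 comparisons, with 1 line per gene. Filled points passed limma's adjusted p of 0.05 and the dotted line is the table median. At 11 weeks the 6 listed receptor genes are all to the right of 0, and at 3 weeks only Fas and Tnfrsf1b are.

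Of 28 signalling genes downstream of the receptors, 9, 1 and 6 were listed in the tables of 3, 8 and 11 weeks and 6 in that of TNF treatment. At 3 weeks 2 rose (Birc2, a ubiquitin ligase of receptor complexes, and Tank) and 7 fell, against 4.68% and 88.9% of listed regions. In this and the other lists a gene counts if any of its regions passed, while the shares are of regions. Of the 7, Rnf31 fell in a gene-body region (-0.59 ± 0.21). Its promoter region had a higher mean, 416.5 ± 131.5 in Tg197 and 326.3 ± 6.9 in WT (limma adjusted p = 0.200). The largest decreases were those of adaptor genes, in gene bodies of Traf3 (-1.39 ± 0.26) and Traf1 (-1.05 ± 0.27) and before the start of Traf2 (-0.92 ± 0.24). The list's median of -0.64 turned to 0.02 with scaling to all listed regions, which moved the table median to -0.04. At 8 weeks the only listed gene was Ripk3, a kinase of necroptosis, with 72.2 ± 12.5 in Tg197 and 146.2 ± 52.2 in WT. At 11 weeks 4 genes rose and 2 fell, against 29.6% and 67.7% of listed regions. Of the 2, Cflar fell by 0.45 ± 0.17, with groups that overlapped and an authors' adjusted p of 0.842. Tank rose by 0.93 ± 0.14 and Birc3, an apoptosis inhibitor gene, by 0.74 ± 0.13, and Tab1, a partner of the kinase TAK1, fell by 0.64 ± 0.15. With TNF Birc3 rose by 0.65 ± 0.14 and Cyld, a deubiquitinase that limits NF-kB, also rose, both close to the threshold (limma adjusted p = 0.0460). A Tab1 region fell by 0.97 ± 0.34 (limma adjusted p = 0.0463), with 1 untreated library among the treated ones. Another Tab1 region, nearer the start, had 236.5 ± 2.5 in TNF-treated and 187.6 ± 13.9 in untreated cells (log2 change 0.34 ± 0.14, limma adjusted p = 0.0553). Otulin had 431.9 ± 14.8 in TNF-treated and 320.6 ± 102.3 in untreated cells.

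For each member, the promoter regions with the most similar profile were found as the smallest distance between log2 values centred over the 6 libraries of a table. For Fas with TNF, Hbs1l and Osmr were among the closest (distances 0.19 and 0.24 among 1726 genes). For Tnfrsf1b at 3 weeks they were Zfp697, Ppm1b and Pppde2 (0.06, 0.08 and 0.09 among 2781). For Tnfrsf18 at 11 weeks they were Lbh, Fam162a and Bsdc1 (0.13, 0.14 and 0.17 among 1669). For Tnf at 3 weeks they were Lin7b, 9430023L20Rik and Shank1 (0.10, 0.11 and 0.11 among 2782).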

How the data were processed

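H3K4me3 profiles of 21 libraries in 7 groups of 3 were deposited as 4 tables, and 1 input library was not analysed here. The submitters' processing notes name the mm9 build and the tools BWA, TopHat, TopHat2, Cufflinks and Cuffdiff, with no role. No label or header names the program that called regions. Each region holds, per the file headers, the normalized read count of 3 treatment and 3 control libraries in 1 cell per group, and the deposited averages (the signal) are their means. The deposited enrichment is a ratio of unstated scaling, the deposited fold columns are on the log2 scale, and the authors' p-value columns give their test for the region and its best window. Each table held only regions whose best window had passed the authors' test. Control was read as WT, since in 54 regions that the 8 week and TNF tables share, all 162 control values came from equal reads. For 3 and 11 weeks this reading rests on the header alone, and the direction of those 6 member regions depends on it.

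Within a library all values were multiples of a single step (tolerance 0.02 normalized reads), which gave back whole reads. limma 3.58.1 in R 4.3.3 was fitted within each table to log2(normalized count + 0.5) with a variance trend, and the fit was tested on simulated data. The tables held normalized counts per library and the authors' comparison together, so limma was the main test. Of methods for counts only voom was run, an alternative chosen after seeing the data. Since these libraries also served to select the regions, limma's p is not independent evidence. Alternatives were another pseudocount, a filter on low values (which changed nothing), no trend, 2 other scalings, a stricter authors' threshold, voom and leaving out each library. The members and gene lists were chosen with earlier results of these data known. All member regions are named, and of each list the 3 genes with the largest absolute log2 change past the authors' adjusted p in a table, with further genes added where counts were small. The most similar genes were sought among regions within 3 kb of a start, for each member in the table where its region had the highest mean, and 1 of the genes found is not reported here. Older symbols were matched through RefSeq's GRCm38.p6 gene table. Promoter sequences matched for 4 of 4 members.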

Additional observations from a re-analysis of the deposited data

Results flagged for a closer look

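Tnfrsf18 had a log2 change of -0.86 ± 0.25 in Tg197 over WT cells at 3 weeks and of 0.60 ± 0.16 at 11 weeks. All 3 Tg197 libraries were below all 3 WT libraries at the earlier age and above them at the later one. Over all listed regions, 86.4% were separate and lower at 3 weeks, and 28.8% were separate and higher at 11 weeks. The pattern was shared nearby. Within 100 kb, Tnfrsf18 included, 3 of 4 listed regions were lower at 3 weeks, and at 11 weeks the other listed region, at Sdf4, also rose (0.68 ± 0.18). The difference between the ages was not tested, since the tables were normalized separately and the regions share only 700 bp.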

How the results depend on the processing

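Over the 8 member regions and 12 alternatives each, 79 of 96 values kept their direction and their side of limma's adjusted p of 0.05, 11 lost the call, 5 gained it and 1 turned. The filter at a mean of 50 changed no value and no table count, so 8 of the 79 were bound to be the same. The value that turned was Tnf at 3 weeks, 0.0764 with scaling to all listed regions, which lifts all changes of that table by a similar amount. The number of member regions past limma was 5, and 4 or 5 under the other settings with all libraries. With scaling to all listed regions limma called 946 regions at 3 weeks (940 rose and 6 fell, against 637 and 12096), 414 at 8 weeks (338 and 76, against 0 and 0), 2759 at 11 weeks (2078 and 681, against 1952 and 4462) and 1030 with TNF (772 and 258, against 509 and 1314). Scaled instead to regions near a start (1 kb), it called 1729 at 8 weeks (12 rose and 1717 fell), while at 3 weeks 3 rose and 12238 fell and with TNF 221 rose and 1946 fell. The pseudocount of 5, the filter at a mean of 50 and voom changed no count of adjusted calls over a table by more than 1.5 times, though regions at 8 weeks with a raw p below 0.05 numbered 1216 by voom against 1876, and without a variance trend limma called 0 regions with TNF (2175 at an unadjusted p under 0.05). At the authors' adjusted p of 0.001 the authors' calls were 1554 at 8 weeks, 3676 at 11 weeks and 1324 with TNF, against 2847, 6382 and 2985. Leaving out 1 library gave 0 to 13397 calls at 3 weeks (0 without WT library c, 9776 at an unadjusted p under 0.05, 8117 leaving out WT library a, 7955 leaving out WT library b) and 0 to 2563 at 8 weeks (2563 without WT library c). It gave 6139 to 6276 at 11 weeks and 0 to 2770 with TNF. In the TNF table the 0 came without TNF library b or c or WT library a or b (1125 to 1234 at an unadjusted p under 0.05) and the 2770 without WT library c. Overlapping pairs of member regions of the same gene numbered 6, and 5 where at least 50% of the shorter region was required. No paired analysis was possible because the 3 values of a cell carry no replicate numbers. edgeR and DESeq2 on recovered reads were planned and not run, and voom on the recovered reads was run in their place. Arms left with 2 libraries were assumed to vary as the others. Reads in member regions, 71 at the lowest, limit what can be seen at Tnf and Tnfrsf18.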
